A study of Mus musculus with 6 samples.

Results

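The genes described here are 10 subunits of the Polycomb complexes that control self-renewal of stem cells: Ezh1, Ezh2, Eed and Suz12 of Polycomb repressive complex 2 (PRC2), and Bmi1, Ring1, Rnf2, Cbx2, Cbx7 and Cbx8 of Polycomb repressive complex 1 (PRC1). They were chosen by name, and all 10 were found among the 22180 genes of the array table, each on 1 probe set, the group of array probes that gives a gene its value. Expression was measured on 6 Affymetrix arrays of LSK cells, the lineage-negative, Sca-1-positive, c-Kit-high fraction of mouse bone marrow that holds the haematopoietic stem cells. The groups were 3 WT samples and 3 CTCFcKO samples, the latter of mice with a tamoxifen-inducible conditional knockout of Ctcf, the gene of the insulator and loop-anchor protein CTCF. The mice of both groups were 8 weeks old. They were injected with tamoxifen on 3 days, at 2 mg each, and marrow was taken for sorting 24 hours after the last injection. The controls are called WT in the labels and CreER in the design text, so the presence of the recombinase in them remains unclear. Neither the promoter of the recombinase nor the deleted exons is named in the labels, and the labels do not say how many mice gave each sample.

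Polycomb proteins keep genes silent by modifying histones. In PRC2 the catalytic subunit, EZH2 or its paralogue EZH1, methylates histone H3 with the help of EED and SUZ12. In PRC1 the RING finger proteins RNF2 (RING1B) or RING1 attach ubiquitin to histone H2A, a PCGF protein such as BMI1 partners them, and a CBX protein binds the methyl mark through its chromodomain. In blood, BMI1 is known for sustaining stem cell self-renewal, EZH2 is typical of dividing cells and EZH1 of resting ones, and CBX7 favours self-renewal while CBX2 and CBX8 can replace it in the complex.

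The targeted gene was checked first. Ctcf stood at log2 levels of 8.35, 8.59 and 8.73 in WT and 7.58, 7.78 and 7.86 in CTCFcKO, so all CTCFcKO arrays lay below all WT arrays. The difference, always given as CTCFcKO minus WT, was -0.82 (SE 0.13, limma adjusted p = 0.104). The LSK marker Kit lay between 10.22 and 10.65 in WT and between 10.12 and 10.21 in CTCFcKO, without overlap. Its difference was -0.22 (limma adjusted p = 0.727). Cd34 lay between 11.78 and 12.04 over both groups, while Sca-1 itself (Ly6a) was not analysed here. Of the 8 LSK markers measured 7 had negative differences (list median -0.10, between -0.19 without WT replicate 3 and -0.05 without WT replicate 2). Over all genes 54.7% of differences were positive. The progenitor receptor Flt3 differed by -0.42 (limma unadjusted p = 0.0289, adjusted p = 0.563). The stem cell marker Slamf1 differed by 0.33 (limma unadjusted p = 0.020, adjusted p = 0.532), with every CTCFcKO array above every WT array. Of 6 T and NK cell markers 5 lay between 3.82 and 6.16, below the median of 6.29 of all genes' mean levels. The other, the granule gene Nkg7, lay between 9.81 and 11.15, with every CTCFcKO array above every WT array and a difference of 0.68 (limma adjusted p = 0.429). Most of this list went the other way, with 4 of the 6 differences negative and a median of -0.08. Among the dim genes Klrd1 differed by -0.37 (limma adjusted p = 0.644), with every CTCFcKO array below every WT array. The differences of the 8 plasma and B cell markers were all negative (median -0.69), as were those of 7 of the 8 neutrophil markers (median -0.63). At an unadjusted p under 0.05 by limma 6 plasma and B cell markers and 4 neutrophil markers were lower, against 3.08% of all genes. In either list 0 passed over all genes. The mean log2 level of the plasma and B cell list was 9.13 to 10.07 on the WT arrays and 8.55 to 9.31 on the CTCFcKO arrays, and that of the neutrophil list 6.56 to 8.31 and 6.23 to 6.99. Without WT replicate 1 the neutrophil median was -0.26, and without WT replicate 2 it was -1.10. The plasma and B cell median was -0.44 without CTCFcKO replicate 3 and -1.0 without WT replicate 3. The part of these markers in the Polycomb values was not tested. All 6 arrays are labelled male, yet Xist, the RNA of the inactive X chromosome, lay between 12.61 and 13.08 and the Y-linked genes Eif2s3y between 2.89 and 3.23, Kdm5d between 3.52 and 4.10 and Uty between 4.24 and 4.57. These values go against the labelled sex on every array of both groups.

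Among the Polycomb genes Ezh2 was the one whose groups did not overlap, with a higher level in every CTCFcKO array than in any WT array. No member passed the test over all genes by limma with Benjamini-Hochberg adjustment at 0.05 (0 of 10), where 0.0721% of all genes passed. At an unadjusted p under 0.05, 1 of 10 members passed, Ezh2, against 8.11% of all genes, and 1 of 10 had groups that did not overlap, against 13.3%. Both shares are near the background and are not a result about the members as a group. The members' median difference was 0.08, beside 0.02 over all genes. Of the 10, 8 had a positive difference (54.7% of all genes did), which became 7 after a further quantile normalization and 6 with arrays centred on the brighter genes. All members but Ezh2 differed by less than 0.25 on the log2 scale, as did 83.9% of all genes. In bulk samples, a different number of cells of a type and a different amount of RNA per cell cannot be told apart.

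**Figure D1:**
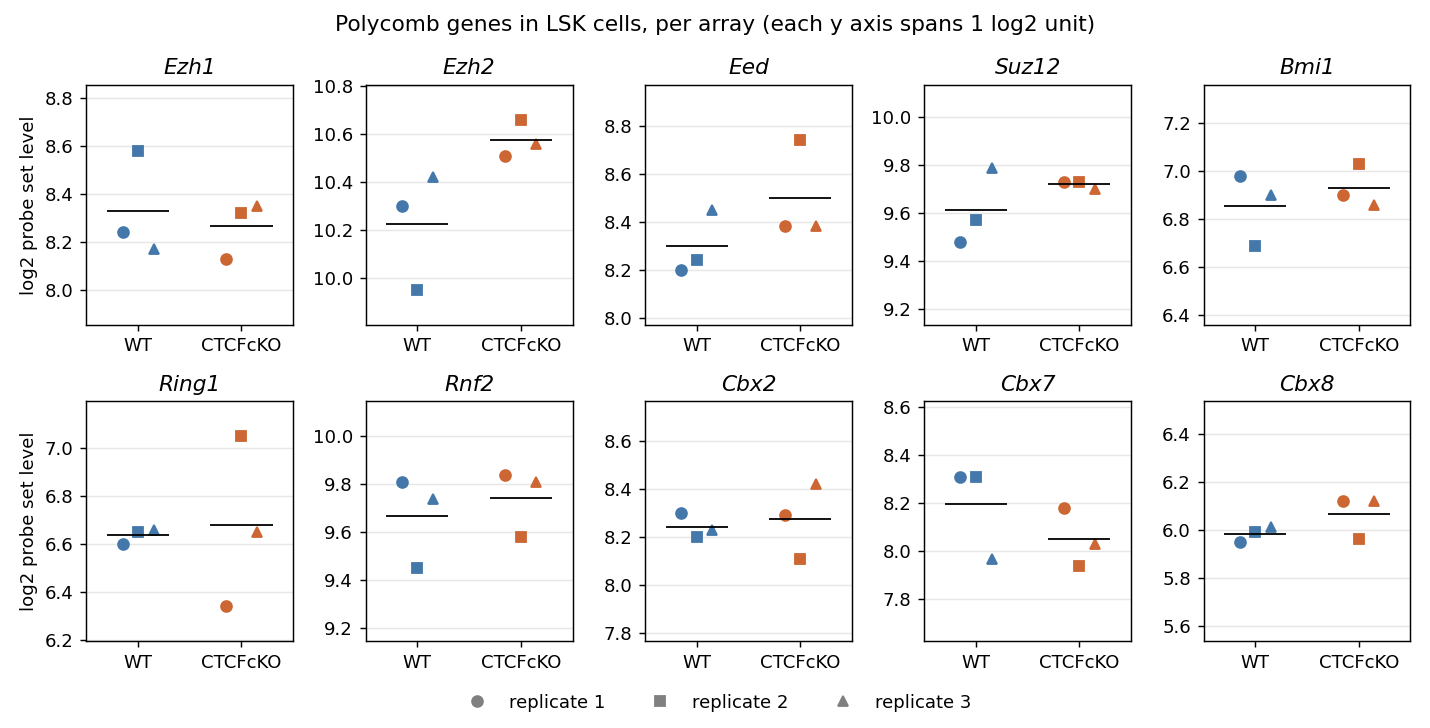
Each panel plots 1 Polycomb gene in LSK cells, with the log2 probe set level on a vertical axis that spans 1 log2 unit, 1 point per array (circle, square and triangle for replicates 1, 2 and 3) and a line at the group mean. The 3 CTCFcKO arrays of Ezh2 lie at 10.51 to 10.66, above the WT arrays at 9.95 to 10.42, and the groups overlap for the other 9 genes.

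The promoters of the catalytic paralogues are shown as a description, and their part in the levels on the arrays was not tested. The sequences are the 250 bases before the annotated start in RefSeq (GRCm38.p6), 5′ to 3′ on the gene's strand, with CCAAT boxes (CCAAT, or ATTGG on the other strand) in capitals. Those of Ezh2 (chr6:47595031-47595280, minus strand) begin 90, 64 and 11 bases before the start, and Ezh1 (chr11:101226464-101226713, minus strand) has none in this window.
Ezh2: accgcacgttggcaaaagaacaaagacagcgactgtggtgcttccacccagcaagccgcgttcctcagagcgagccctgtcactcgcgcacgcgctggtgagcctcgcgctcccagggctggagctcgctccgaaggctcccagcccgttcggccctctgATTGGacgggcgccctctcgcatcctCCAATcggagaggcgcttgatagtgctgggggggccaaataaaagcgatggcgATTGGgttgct
Ezh1: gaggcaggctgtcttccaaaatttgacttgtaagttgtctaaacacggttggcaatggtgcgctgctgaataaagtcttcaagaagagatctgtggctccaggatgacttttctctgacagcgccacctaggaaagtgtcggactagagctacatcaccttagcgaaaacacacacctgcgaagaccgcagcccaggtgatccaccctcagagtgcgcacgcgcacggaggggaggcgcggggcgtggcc
Of 32851 RefSeq windows of 300 bases, from 250 before to 50 after a start, 37.4% hold at least 1 CCAAT box and 3.37% hold at least 3, as that of Ezh2 does. Among the 9 windows of members, 5 hold at least 1, those of Ezh2, Eed, Suz12, Cbx7 and Cbx8.

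E2F factors drive genes of the S phase, and their sites were searched as TTTCCCGC, TTTGGCGC, TTTCGCGC and TTTGCCGC on both strands of the same windows. A match was found in 2.26% of all windows and in 2 of the 9 member promoters in the table (all but Cbx2), those of Ezh2 and Suz12. Phf19, a PRC2 accessory gene described below, had one as well, while Rbbp7, another PRC2 gene whose groups did not overlap, had 0. The matches are shown with 10 bases on each side, in capitals, on the gene's strand.
Ezh2 (chr6:47595010-47595037, minus strand): ggttgctgcgTTTGGCGCtcggtccggt
Suz12 (chr11:79992877-79992904, plus strand): gacccctcatTTTCCCGCgaattcagtt
Phf19 (chr2:34914167-34914194, minus strand): tcaataattcGCGGGAAAacgcgaaaaa
The match of Ezh2 begins at base 4 counted from the start as base 1, that of Suz12 219 bases before the start and that of Phf19 208 bases before it. The short stretch CCCTC, which gave CTCF its name, was on either strand of all 9 member windows and of 66.0% of all windows. The 9 windows were rich in G and C, 54.7% to 74.0% of bases, where the median of all windows was 52.7%. A match of letters is a description of the sequence and does not show binding.

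Ezh2, the catalytic subunit of PRC2 in dividing cells, had log2 levels of 10.30, 9.95 and 10.42 in WT and 10.51, 10.66 and 10.56 in CTCFcKO. WT replicate 2 was the lowest array and CTCFcKO replicate 2 the highest, and the CTCFcKO arrays lay close together (SD 0.08, against 0.24 in WT, n = 3 each). The difference was 0.35 (SE 0.14, 95% interval 0.04 to 0.67), or 1.28-fold. The limma adjusted p over all genes was 0.578, with an unadjusted p of 0.0332, and an exact permutation test (two-sided) gave p = 0.1, the lowest value possible for 3 against 3 arrays. Without WT replicate 2 the Ezh2 difference was 0.21 (unadjusted p = 0.114). Over all settings tried it lay between 0.21 and 0.45, with 0.42 as the smallest adjusted p. The unadjusted p was under 0.05 in 3 of the 6 fits that leave out an array, and it was 0.0567 with arrays centred on the brighter genes.

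Ezh1, the paralogue that prevails in resting cells, had levels of 8.24, 8.58 and 8.17 in WT and 8.13, 8.32 and 8.35 in CTCFcKO. The groups overlapped throughout, and WT replicate 2, the array with the least Ezh2, had the most Ezh1. The difference was -0.06 (SE 0.14, 95% interval -0.38 to 0.25, limma adjusted p = 0.943), and it turned to 0.06 without WT replicate 2 and to 0.01 without CTCFcKO replicate 1.

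The balance of both catalytic subunits was followed as the log2 ratio of Ezh1 over Ezh2 within each array, set to 0 at the WT mean, since levels of different probe sets cannot be compared directly. The ratio stood at -0.17, 0.53 and -0.36 in WT and at -0.48, -0.44 and -0.32 in CTCFcKO. The CTCFcKO mean was therefore -0.41, or 75.1% of the WT ratio. WT replicate 3 lay within the CTCFcKO values, and WT replicate 2 alone stood above 0. Without WT replicate 2 the difference of this ratio was -0.15, so its size rests on that array. The spread was 0.47 (SD, n = 3) in WT and 0.09 in CTCFcKO.

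Eed, the subunit that reads the methyl mark and stimulates the enzyme, had levels of 8.20, 8.24 and 8.45 in WT and 8.38, 8.74 and 8.38 in CTCFcKO. CTCFcKO replicate 2 was the highest array, and the other CTCFcKO arrays lay below WT replicate 3. The difference was 0.20 (SE 0.14, limma adjusted p = 0.765), with 0.08 without CTCFcKO replicate 2. Suz12, which holds the PRC2 core together, had levels of 9.48, 9.57 and 9.79 in WT and 9.73, 9.73 and 9.70 in CTCFcKO. The CTCFcKO arrays were nearly alike and sat within the WT range. Its difference was 0.10 (SE 0.11, limma adjusted p = 0.886), and 0.03 without WT replicate 1.

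Bmi1, the PCGF subunit of PRC1 known from stem cell self-renewal, stood at 6.98, 6.69 and 6.90 in WT and 6.90, 7.03 and 6.86 in CTCFcKO. The groups overlapped, with WT replicate 2 lowest. The difference was 0.08 (SE 0.12, 95% interval -0.19 to 0.34, limma adjusted p = 0.917), and it was -0.01 without WT replicate 2. The interval gives the Bmi1 differences that 3 arrays a group leave possible, and it is not a limit of detection.

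The ubiquitin ligases of PRC1 overlapped between groups. Rnf2, the main ligase, had levels of 9.81, 9.45 and 9.74 in WT and 9.84, 9.58 and 9.81 in CTCFcKO. Replicate 2 was the lowest array in each group. The difference was 0.08 (SE 0.13, 95% interval -0.23 to 0.38, limma adjusted p = 0.927), and it was -0.03 without WT replicate 2. Ring1, its paralogue, stood at 6.60, 6.65 and 6.66 in WT and 6.34, 7.05 and 6.65 in CTCFcKO. The lowest and the highest array were both CTCFcKO, with an SD of 0.36 there and 0.04 in WT. The difference of 0.04 (SE 0.17, limma adjusted p = 0.973) moved between -0.15 and 0.21 when 1 array was left out, the extremes being without CTCFcKO replicate 2 and without CTCFcKO replicate 1.

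The chromodomain subunits differed little. Cbx7, the CBX protein linked to self-renewal, had levels of 8.31, 8.31 and 7.97 in WT and 8.18, 7.94 and 8.03 in CTCFcKO. WT replicates 1 and 2 lay above all CTCFcKO arrays, while WT replicate 3 lay among them. The difference was -0.15 (SE 0.13, 95% interval -0.44 to 0.15, limma adjusted p = 0.850), and it kept its sign in all settings tried, between -0.26 without WT replicate 3 and -0.09 without WT replicate 1. Cbx2 stood at 8.30, 8.20 and 8.23 in WT and 8.29, 8.11 and 8.42 in CTCFcKO. Its CTCFcKO arrays spanned the WT range, with a difference of 0.03 (SE 0.12, limma adjusted p = 0.969) whose sign turned in 3 of the settings tried. Cbx8 was dim, at 5.95, 5.99 and 6.01 in WT and 6.12, 5.96 and 6.12 in CTCFcKO, below the median of all genes' means. CTCFcKO replicate 2 lay within the WT values, and the difference was 0.09 (SE 0.10, limma adjusted p = 0.895). RMA compresses differences of dim probe sets.

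Within each array, the log2 ratio of Cbx7 over the mean of Cbx2 and Cbx8, set to 0 at the WT mean, was 0.10, 0.13 and -0.23 in WT and -0.11, -0.18 and -0.32 in CTCFcKO. WT replicate 3 lay inside the CTCFcKO values. The difference was -0.21, or 86.7% of the WT ratio, with SDs of 0.20 and 0.11. Leaving out 1 array moved it between -0.32 (without WT replicate 3) and -0.14 (without WT replicate 2).

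**Figure D2:**
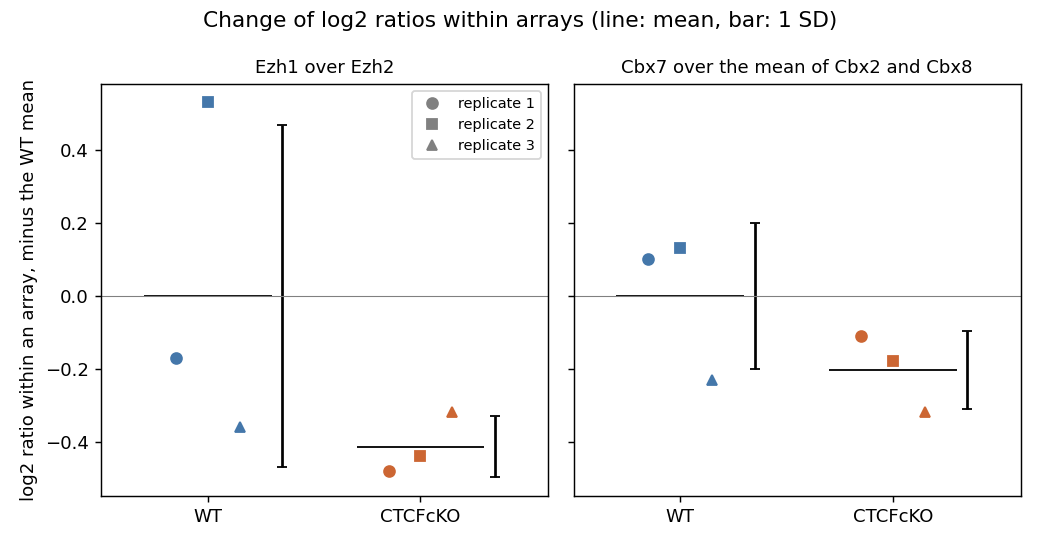
The vertical axis gives the log2 ratio within an array minus its WT mean, for Ezh1 over Ezh2 (left) and Cbx7 over the mean of Cbx2 and Cbx8 (right), with 1 point per array, a line at the group mean and a bar of 1 SD on each side (n = 3). The CTCFcKO means are -0.41 and -0.21, and in both panels WT replicate 3 lies among the CTCFcKO arrays.

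The other PRC2 subunits had differences in both directions. Of 9, 0 passed the test over all genes, 4 differences were positive and 5 negative, and the median of -0.05 lay between -0.07 and 0.09 when 1 array was left out (0.09 without CTCFcKO replicate 1, 0.06 without WT replicate 2). At an unadjusted p under 0.05 there were 2, both higher, against 5.03% of all genes in that direction. Phf19, an accessory subunit that helps to recruit PRC2, stood at 6.47, 6.36 and 6.89 in WT and 6.95, 7.05 and 6.95 in CTCFcKO. Its difference was 0.42 (SE 0.15, limma adjusted p = 0.534), and 0.31 without WT replicate 2. Rbbp7, a histone chaperone of the PRC2 core, stood at 10.39, 10.21 and 10.46 in WT and 10.61, 10.62 and 10.65 in CTCFcKO. Its difference was 0.28 (SE 0.11, limma adjusted p = 0.578), and 0.20 without WT replicate 2. For both genes, as for Ezh2, every CTCFcKO array lay above every WT array and WT replicate 2 was the lowest. Phf1 went the other way, with a difference of -0.22 and every CTCFcKO array below every WT array. The groups of 3 of the 9 genes thus did not overlap, against 13.3% of all genes. Rbbp4, the paralogue of Rbbp7, differed by 0.20 with overlap, and WT replicate 2 was its lowest array. Mtf2 differed by 0.17, Epop by -0.05, Aebp2 by -0.06, Lcor by -0.06 and Jarid2 by -0.11. For Phf1 and these genes the limma adjusted p was 0.706 or more.

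Of the other PRC1 genes, 18 were measured on a probe set of their own, while Cbx6, Kdm2b and Bcor were not analysed here. Among the 18, 0 passed over all genes, 10 differences were positive and 8 negative, and the median was 0.04, or -0.05 without CTCFcKO replicate 3; after a further quantile normalization or with centring on the brighter genes 6 were positive. In this list 1 gene was higher and 1 lower at an unadjusted p under 0.05, where 5.03% of all genes were higher and 3.08% lower. With 18 genes these counts are near the background and are not a result about the list. Auts2, a partner of PRC1 forms that act on transcription, stood at 6.94, 7.08 and 6.70 in WT and 6.51, 6.53 and 6.49 in CTCFcKO. All CTCFcKO arrays lay below the WT arrays, with a difference of -0.40 (SE 0.12, limma adjusted p = 0.446), and its unadjusted p was under 0.05 in all 6 fits that leave out an array. Scml2, a PRC1-associated protein, stood at 5.86, 5.77 and 5.80 in WT and 6.15, 6.10 and 5.98 in CTCFcKO, a difference of 0.27 (SE 0.10, limma adjusted p = 0.565) on a dim probe set. Of the PCGF paralogues of Bmi1, Pcgf2 differed by 0.29, Pcgf5 by 0.17, Pcgf1 by 0.12, Pcgf3 by 0.04 and Pcgf6 by -0.09, with limma adjusted p of 0.633 or more.

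**Figure D3:**
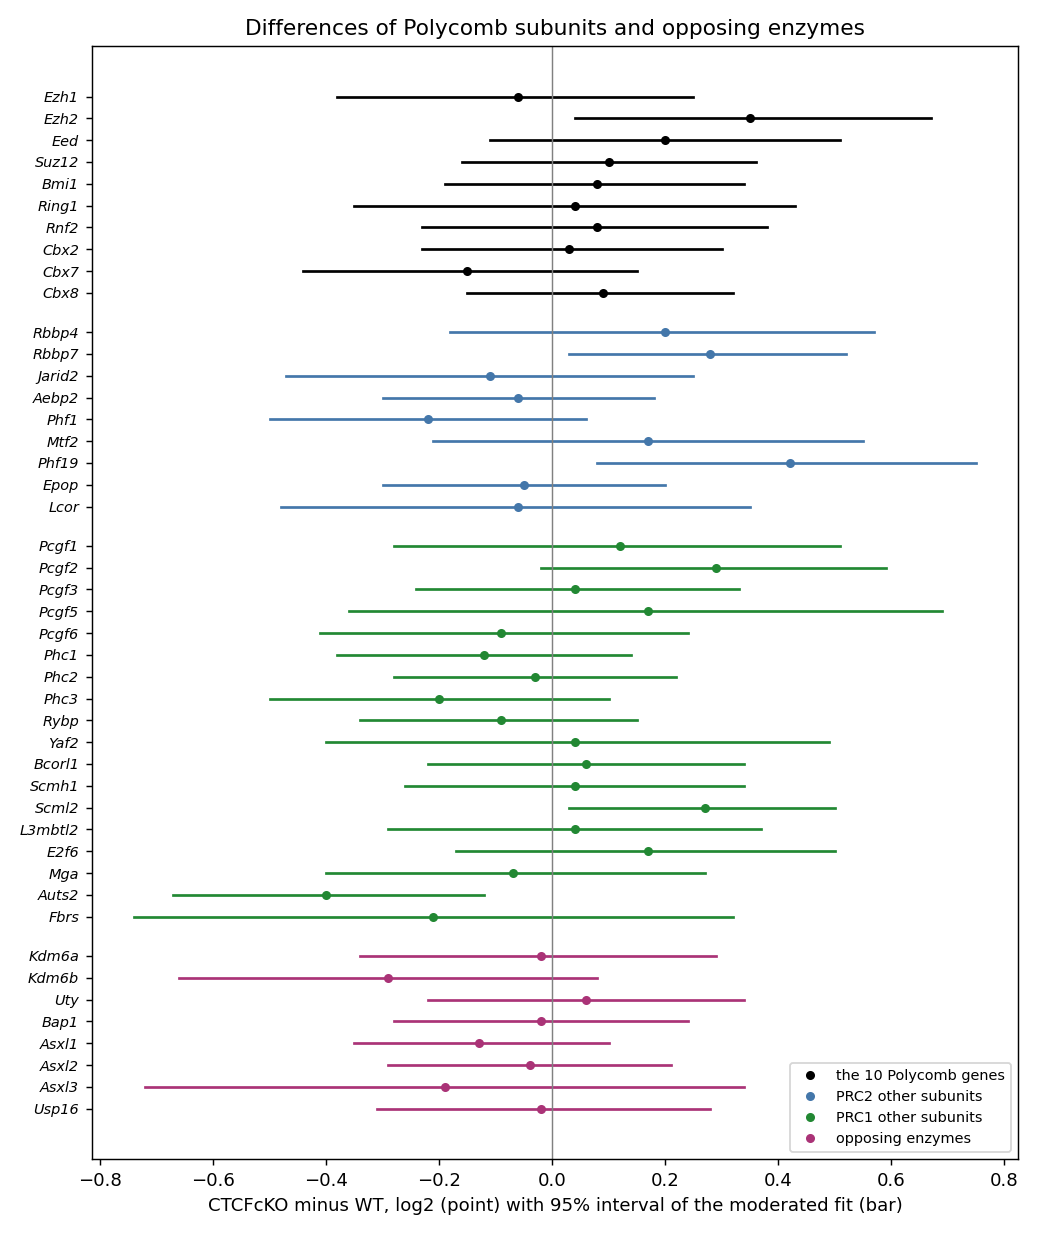
Points give the CTCFcKO minus WT difference on the log2 scale and bars its 95% interval from the moderated fit, for the 10 Polycomb genes, 9 other PRC2 subunits, 18 other PRC1 subunits and 8 opposing enzymes. The intervals of Ezh2, Rbbp7, Phf19, Scml2 and Auts2 do not include 0 before adjustment, and none of these genes passed after adjustment over all genes.

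Enzymes that remove the methyl or ubiquitin marks of Polycomb, with their cofactors, had 0 of 8 genes past the test, adjusted or not. There were 7 negative differences and 1 positive, where 54.7% of all genes had a positive one. The positive one was 0.06 for Uty, on a dim probe set. The median was -0.03 (-0.10 without CTCFcKO replicate 3, 0.00 without CTCFcKO replicate 1). The largest differences were those of Kdm6b, a demethylase of the PRC2 mark, at -0.29 (SE 0.16, limma adjusted p = 0.703), and Asxl3 at -0.19 (limma adjusted p = 0.897), which turned to 0.11 without CTCFcKO replicate 1. That of Kdm6b, a gene with 2 probe sets, was -0.16 without WT replicate 2 or without CTCFcKO replicate 2. Over all settings tried it lay between -0.40 and -0.13. Asxl3 was dim, with a mean below the median of all genes' means. The demethylase Kdm6a differed by -0.02. Of 12 Trithorax methyltransferase genes, which maintain active genes, 0 passed over all genes and the median was 0.01 (-0.02 without CTCFcKO replicate 2, 0.07 without CTCFcKO replicate 1). At an unadjusted p under 0.05 by limma there was 1 of the 12, near the 8.11% of all genes. This was Dpy30, a shared subunit of these complexes, at 7.25, 6.76 and 7.36 in WT and 7.68, 7.73 and 7.59 in CTCFcKO. Its difference was 0.54 (SE 0.16, limma adjusted p = 0.435), and 0.36 without WT replicate 2.

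Genes that Polycomb is known to silence had differences in both directions. Among 13 targets known in blood cells 0 passed over all genes, 7 differences were positive (6 after a further quantile normalization, 5 with centring on the brighter genes), and the median was 0.00. Cdkn2a, the classic target whose repression by BMI1 sustains stem cells, stood at 6.64, 6.63 and 6.70 in WT and 6.63, 6.77 and 6.64 in CTCFcKO. These arrays were close together in both groups, with a difference of 0.03 (SE 0.10, limma adjusted p = 0.971). The levels lay little above the median of 6.29 of all genes' means, and the SD over the 6 arrays was at the 2.49th percentile of all genes. Whether this probe set would show a change was not tested. Cdkn2b, the neighbour of Cdkn2a, differed by 0.00 (SE 0.12). Cdkn1a, a CDK inhibitor that p53 also drives, stood at 7.99, 8.01 and 8.35 in WT and 8.51, 8.84 and 9.19 in CTCFcKO, without overlap. Its difference was 0.73 (SE 0.18, limma adjusted p = 0.341). The B lineage factor Ebf1 stood at 7.76, 5.76 and 5.90 in WT and 5.50, 5.69 and 5.37 in CTCFcKO, a difference of -0.95 that became -0.30 without WT replicate 1. Of 19 developmental regulators that stay silent in blood, 0 passed over all genes or at an unadjusted p under 0.05. All 19 differed by less than 0.25, between -0.18 for Tbx5 and 0.18 for Hand2, with a median of -0.01 that lay between -0.06 and 0.00 under the other scalings. The means of 16 of these 19 lay below the median of all genes' means, and arrays give no detection call.

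Proliferation markers ordered the arrays as Ezh2 did, except that CTCFcKO replicates 1 and 3 changed places. The median of 17 markers, each centred on its mean over the 6 arrays, was -0.19, -0.66 and 0.13 in WT and 0.20, 0.36 and 0.16 in CTCFcKO. WT replicate 2 was the lowest array for these markers and for Ezh2, followed by WT replicates 1 and 3, and CTCFcKO replicate 2 was the highest for both. The differences of all 17 markers were positive, and their median of 0.46 was 0.26 without WT replicate 2. Of the 17, 0 passed over all genes. At an unadjusted p under 0.05 by limma 10 were higher, against 5.03% of all genes in that direction. The groups of 6 did not overlap, against 13.3% of all genes in either direction. The difference was 0.63 (SE 0.21) for Mki67, a marker of cycling cells, 0.66 (SE 0.28) for the mitotic kinase Cdk1 and 0.32 (SE 0.13) for the replication clamp Pcna, with limma adjusted p of 0.508 to 0.593. Without WT replicate 2 these were 0.42, 0.32 and 0.19. The part of proliferation in the Ezh2 difference was not tested.

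**Figure D4:**
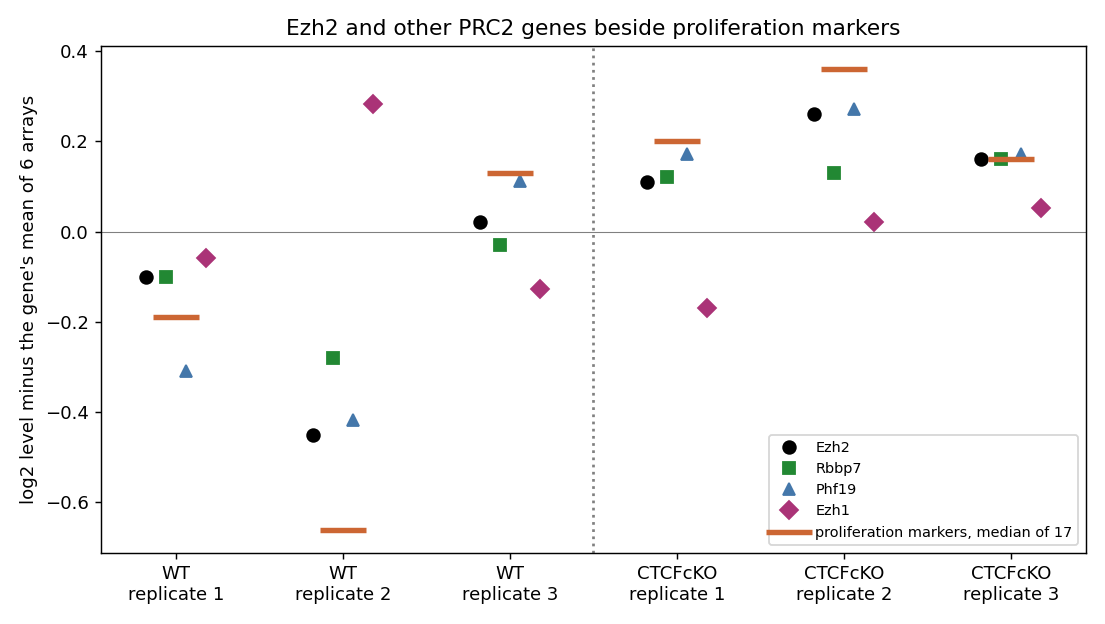
For each of the 6 arrays the plot gives the log2 level minus the gene's mean over all arrays for Ezh2, Rbbp7, Phf19 and Ezh1, with a bar at the median of 17 proliferation markers. Ezh2, Rbbp7, Phf19 and the marker median are lowest on WT replicate 2, where Ezh1 is highest.

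The genes most like Ezh2 were sought among 11089 genes brighter than the median, as those with the smallest root mean square distance between log2 profiles over the 6 arrays, each centred on its own mean. They were 1700025G04Rik (0.024), Sod1 (0.032), Nop10 (0.033), Agpat2 (0.035) and Psmb5 (0.037). Sod1 is a superoxide dismutase, Nop10 a protein of small nucleolar ribonucleoproteins, Agpat2 an enzyme of phospholipid synthesis and Psmb5 a catalytic subunit of the proteasome. Their differences lay between 0.30 for Nop10 and 0.38 for Psmb5, and the groups of all 5 did not overlap. Both follow from choosing the genes by closeness to Ezh2 on the same arrays. For Bmi1 the nearest were Ift46 (0.022), Fntb (0.030), Cdk9 (0.031), Msto1 (0.032) and Ebag9 (0.033). Their differences lay between 0.03 and 0.11, near that of Bmi1 by the same choice. No Polycomb subunit was among either group of 5. With only 5 taken from 11089 genes, this does not tell whether the subunits vary together.

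The members varied unlike each other across arrays. Ezh2 and Ring1 had the widest range over the 6 arrays, 0.71 each, but for Ezh2 it ran from a WT to a CTCFcKO array and for Ring1 between CTCFcKO arrays. Cbx8 had the narrowest, at 0.18. The SD of Ezh2 over the 6 arrays, 0.25, was at the 81.1th percentile of all genes, and that of Suz12, 0.11, at the 23.0th. WT replicate 2 was the lowest array for Ezh2, Bmi1 and Rnf2 and the highest for Ezh1.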

How the data were processed

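The deposited values are log2 probe set levels of 6 arrays, 3 per group, each labelled a biological replicate. They were made with RMA and the R package oligo, per the submitters' processing notes, in versions those notes do not state. The genome build behind the array annotation is not given in the sources used here; promoter coordinates are those of RefSeq on GRCm38.p6. A single gene symbol was available from GEO's platform annotation for 23521 of 41345 probe sets, and the brightest probe set by its mean of all 6 arrays stood for each of 22180 genes. No filter on low values was applied. Groups were compared by limma 3.58.1 in R 4.3.3 (lmFit and eBayes, group as the only term), with Benjamini-Hochberg adjustment over all genes and a threshold of 0.05. SDs are between arrays, and SEs and 95% intervals come from the moderated fit. The members and gene lists were chosen with earlier results of these data known. Named were all members and Ctcf, of each list of Polycomb partners, opponents, Trithorax genes and targets the genes with an unadjusted p under 0.05 or otherwise the 2 largest differences, of the proliferation markers Mki67, Cdk1 and Pcna, and the 5 genes nearest to Ezh2 and to Bmi1. Further genes, among them Xist and the Y-linked genes, the cell type markers, the PCGF and other PRC2 genes, Cdkn2a, Cdkn2b and Ebf1, were named after their values were seen. The alternatives were averaging all probe sets of a gene, array weights, eBayes with trend and robust options, brighter genes only, quantile normalization once more, centring on the brighter genes' median, a block for the replicate number, leaving out each array and an unadjusted threshold. On simulated data of 22180 genes with 200 changed, 19.3% of log2 changes of 0.5 and 95.3% of log2 changes of 1 were recovered, and 6.25% of calls were false. The Ezh2 difference is below the size at which most changes would be called. No 2 arrays held the same values (at most 75 probe sets equal). With 3 arrays a group, their number sets the precision.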

Additional observations from a re-analysis of the deposited data

How the results depend on the processing

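None of the 10 Polycomb genes passed the adjusted threshold under any alternative run, and 1, Ezh2, passed at an unadjusted p under 0.05. The count over all genes was 16, and it was 25 with eBayes trend and robust settings, 7 with the replicate number as a block and 1799 at an unadjusted p under 0.05. With 1 array left out it lay between 0 (without CTCFcKO replicate 1, where limma gave 1725 genes at an unadjusted p under 0.05) and 8 (without WT replicate 3); it was 4 without WT replicate 1, 5 without WT replicate 2, 7 without CTCFcKO replicate 2 and 4 without CTCFcKO replicate 3. The members' median difference of 0.08 became 0.04 after a further quantile normalization and 0.02 with centring on the brighter genes, which moved the median of all genes to 0.00 and -0.04. The replicate number was not taken as a pairing, since the deviations of same-numbered arrays correlated at 0.29, 0.02 and -0.14. The block changed no member's call. Ezh2, Eed, Suz12, Cbx7 and Cbx8 kept their sign in all alternatives run, while Ezh1 turned in 2, Bmi1 in 1, Ring1 in 2, Rnf2 in 1 and Cbx2 in 3.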
